A study of Rattus norvegicus with 8 samples.

Results

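The insulin-like growth factor (IGF) axis was examined in rat carotid arteries 2 weeks after intimal injury. Its genes were taken by symbol from the deposited count table. They comprised the ligand genes Igf1 and Igf2, the receptor genes Igf1r and Igf2r, and the binding protein genes Igfbp2, Igfbp3, Igfbp4, Igfbp5, Igfbp6 and Igfbp7. All 10 genes were found among the 37209 genes of the table, and all 10 had enough counts for the test. The injured group held 4 left common carotid arteries of male Sprague-Dawley rats, denuded with a balloon catheter. The control group held 4 undamaged right carotid arteries from operated rats, so neither group came from unoperated animals. Neither the age of the animals nor any transgene is given in the labels, and each group was sequenced as 4 separate libraries. The study treats the controls as the injured rats' own opposite arteries, but whether an injured and a control artery with the same number came from one rat is not stated.

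IGF-I and IGF-II are secreted peptides that promote growth and survival, and in the artery wall they act on smooth muscle cells. Both signal through the type 1 receptor (Igf1r), a tyrosine kinase that recruits insulin receptor substrates and activates the PI3K-Akt and Ras-MAPK pathways. The type 2 receptor (Igf2r) internalizes and degrades IGF-II and also carries lysosomal enzymes. IGF-binding proteins hold the peptides in the extracellular space, where proteases can set them free.

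The libraries held 11459632 to 16658089 counts each. Levels are given as CPM, the counts of a gene relative to the library total after scaling with the TMM factors of edgeR. Within the control group, artery 4 stood apart. Its log2 CPM correlated with the other controls at 0.839 to 0.857 across genes, against 0.981 to 0.983 among those 3, and the summed level of 9 sympathetic neuron genes was 9254 CPM in it against 14.8 to 19.9 CPM in the others. Among the injured arteries this sum was 2346 CPM in artery 3, 160.3 CPM in artery 1 and at most 10.6 CPM in the other two. In control artery 4, 9 of the 10 IGF axis genes lay below every other control, Igf2 being the exception, whereas 39.9% of all genes tested did so. Results are therefore also given without that artery. The extraction text of the labels names prefrontal cortex, but of 6 brain genes Neurod6, Gad2 and Slc17a7 had at most 8 counts in any library and Gad1 and Rbfox3 at most 34. Gfap, the gene of an intermediate filament of astrocytes and of some Schwann cells, had 9 to 385 counts in the controls and 121 to 3497 in the injured arteries. As for the artery wall, 8 contractile smooth muscle genes summed to 10560 CPM or more in every artery.

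A gene was called at an adjusted p under 0.05 (false discovery rate over the 14359 genes tested, edgeR's quasi-likelihood test) together with a fold change above 2. By these criteria 2 of the 10 genes, Igfbp3 and Igf2, were upregulated in the injured arteries and 0 were downregulated, while DESeq2 called the same genes upregulated and Igfbp2 downregulated. Of all genes tested, 10.9% were called, 8.31% as upregulated and 2.57% as downregulated. At the adjusted p alone, Igfbp4 joined them, which made 3 of 10 genes against 17.2% of all genes, and 5 of 10 had an unadjusted p under 0.05, of which 4 had a positive fold change and 1, Igfbp2, a negative one, where 31.1% of all genes had such a p. Without control artery 4, Igf2 and Igfbp3 were again called and Igfbp2 joined them as downregulated, where 16.2% of all genes tested were called. Of the 10 genes, 3 had no overlap between the groups, against 23.7% of all genes, a share that does not set these genes apart. Their median log2 fold change was 0.38, and that of all genes tested was -0.06.

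**Figure D1:**
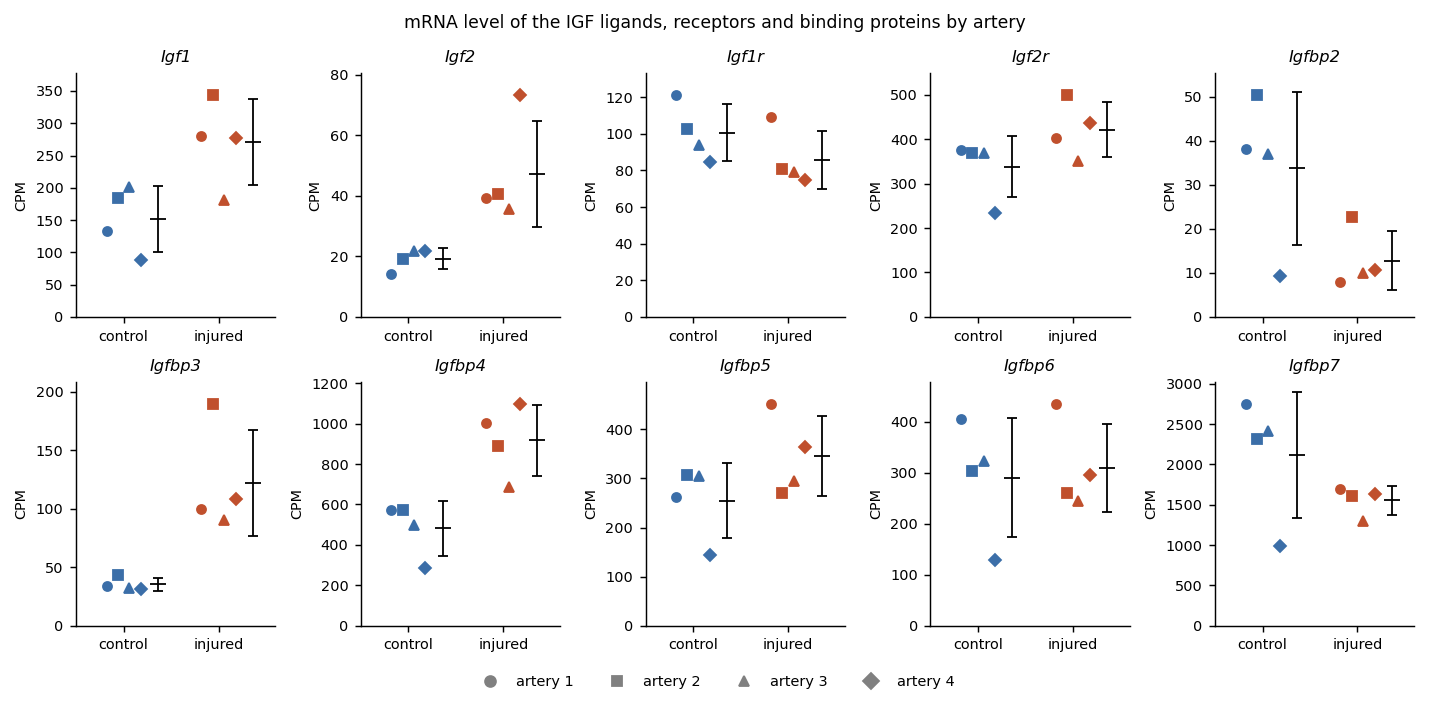
Levels of the 10 IGF axis genes in CPM (y axis, from 0) in the control (blue) and injured (red) arteries, with 1 symbol per artery number and the mean ± SD of each group (n = 4) in black. Igf2, Igfbp3 and Igfbp4 lie higher in every injured artery than in any control, and control artery 4 (diamond) is the lowest control in all panels but that of Igf2.

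Of the ligand genes, Igf2 encodes the growth factor that is abundant in fetal tissue. It was at 14.3, 19.1, 21.8 and 21.8 CPM in control arteries 1 to 4, and at 39.2, 40.5, 35.8 and 73.1 CPM in injured arteries 1 to 4. Every injured artery thus lay above every control, and injured artery 4 was well above the other three. The mean rose from 19.3 ± 3.52 to 47.1 ± 17.4 CPM (SD, n = 4). This was a log2 fold change of 1.29 ± 0.26 (SE), a 2.45-fold rise, with an adjusted p of 0.0127 in edgeR. With control artery 4 left out it was 1.35 (adjusted p = 0.0096, edgeR). Without injured artery 4 it was 1.00, just short of the fold criterion, with an adjusted p of 0.0188 in edgeR.

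To show the regulatory sequence beside the gene that rose, the 250 bases before each of the starts listed for Igf2 are given, from the RefSeq promoter table (GRCr8, minus strand). They lie at chr1:207253981-207254230 for the upstream start and at chr1:207250476-207250725 for the downstream start. Capitals mark matches, on either strand, to TATAAA or to GGGCGG, the letters of a TATA box and of a GC box. Among the 33469 windows of the same length in the table, 12.9% hold TATAAA and 30.5% hold GGGCGG.
Igf2 upstream: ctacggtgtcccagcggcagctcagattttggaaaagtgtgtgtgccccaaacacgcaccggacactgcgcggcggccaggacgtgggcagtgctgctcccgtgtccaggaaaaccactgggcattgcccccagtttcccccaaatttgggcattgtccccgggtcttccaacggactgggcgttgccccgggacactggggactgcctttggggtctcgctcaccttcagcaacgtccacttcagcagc
Igf2 downstream: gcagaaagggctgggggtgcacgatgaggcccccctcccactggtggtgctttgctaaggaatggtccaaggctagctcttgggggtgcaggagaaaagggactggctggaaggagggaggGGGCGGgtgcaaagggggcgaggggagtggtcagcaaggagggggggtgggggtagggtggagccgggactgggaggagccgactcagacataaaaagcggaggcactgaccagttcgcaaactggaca
The downstream window holds 1 GGGCGG and the upstream window none. They contain 7 and 15 CpG dinucleotides, in that order, where the median window has 5. The counts are per gene, so they do not tell which start was used.

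Igf1, which encodes the ligand that growth hormone induces in the liver and that many tissues make locally, was at 132.5, 184.0, 201.1 and 88.5 CPM in control arteries 1 to 4. In injured arteries 1 to 4 it was at 280.5, 343.1, 181.6 and 277.1 CPM. The groups overlapped, because injured artery 3 lay below control arteries 2 and 3. Its log2 fold change was 0.84 ± 0.29 (SE, 95% CI 0.17 to 1.50), which missed the threshold at an adjusted p of 0.087 in edgeR. Leaving out control artery 4 gave 0.64 (adjusted p = 0.0658, edgeR). Leaving out injured artery 3 as well, a fit added after seeing the data, gave 0.80 (adjusted p = 0.00787, edgeR), below the fold criterion. DESeq2 gave an adjusted p of 0.038 at a fold change under 2. With library totals as the only scaling, Igf1 was called (log2 fold change 1.02, adjusted p = 0.036, edgeR). Macrophages are one source of Igf1, and of 10 macrophage genes 9 were called upregulated. Their summed level was 160.2 to 225.4 CPM in the controls and 702.4 to 970.8 CPM in the injured arteries, none of the 10 was at 0 in any artery, and their part in the Igf1 values was not tested. In whole arteries, more cells of one type cannot be told apart from more RNA in each cell.

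Neither receptor gene passed the test. Igf1r, the gene of the signaling receptor, was at 120.9, 102.8, 94.0 and 84.7 CPM in control arteries 1 to 4 and at 109.3, 80.5, 79.0 and 74.7 CPM in injured arteries 1 to 4. Injured artery 1 lay within the range of the controls, and the log2 fold change was -0.23 ± 0.16 (SE, 95% CI -0.60 to 0.15, adjusted p = 0.388, edgeR). Igf2r, the gene of the clearance receptor, was at 376.4, 368.8, 369.8 and 234.8 CPM in the controls and at 401.6, 498.4, 350.6 and 435.7 CPM in the injured arteries, in the same order. Igf2r had a log2 fold change of 0.32 ± 0.19 (SE, 95% CI -0.12 to 0.76, adjusted p = 0.296, edgeR). In the fit without control artery 4 the difference narrowed to 0.18 (adjusted p = 0.328, edgeR). The injured and control arteries overlapped for both receptors.

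Among the binding proteins, Igfbp3 had the largest log2 fold change. Its product is the main IGF carrier of the circulation and is also made by vascular cells. It was at 33.7, 43.6, 32.2 and 31.5 CPM in control arteries 1 to 4 and at 100.2, 189.5, 90.1 and 108.6 CPM in injured arteries 1 to 4. The groups lay far apart, and injured artery 2 was the highest. This gave a log2 fold change of 1.79 ± 0.25 (SE), a 3.46-fold rise, with an adjusted p of 0.00279 in edgeR. It was the only one of the 10 genes that also passed a test against a fold change of 2 (adjusted p = 0.0361, edgeR), and leaving out each artery in turn kept its log2 fold change at 1.50 to 1.91 and the gene past both criteria in all 8 fits.

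Igfbp4 was higher in every injured artery as well. Its product is mostly known as an inhibitor of IGF action until it is cleaved by pappalysin. It was at 570.7, 574.0, 498.5 and 283.6 CPM in control arteries 1 to 4 and at 1002.5, 887.4, 687.9 and 1096.5 CPM in injured arteries 1 to 4. Every injured artery lay above every control, and control artery 4 was the lowest. The log2 fold change of 0.93 ± 0.26 (SE, adjusted p = 0.0408, edgeR) was a 1.91-fold rise and stayed below the fold criterion. With 1 artery left out in turn, the adjusted p in edgeR was 0.0124 to 0.125 and under 0.05 in 2 of 8 fits. The value without control artery 4 was 0.74 (adjusted p = 0.0124, edgeR). Both criteria were met when injured artery 3 was left out (log2 fold change 1.04, adjusted p = 0.0378, edgeR) and with library totals alone (1.12, adjusted p = 0.0133, edgeR). Leaving out control artery 1 or 2 gave log2 fold changes of 1.02 and adjusted p-values of 0.0658 and 0.0698 in edgeR.

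Igfbp2 was lower in every injured artery than in 3 of the 4 controls. Its product binds IGF-II with high affinity and can attach to cell surface integrins. It was at 38.2, 50.4, 37.1 and 9.4 CPM in control arteries 1 to 4 and at 8.0, 22.6, 9.9 and 10.6 CPM in injured arteries 1 to 4. Control artery 4 thus lay among the injured arteries, and the other 3 controls lay above all of them. With all 8 arteries the log2 fold change was -1.40 ± 0.52 (SE, 95% CI -2.60 to -0.20), and the adjusted p of 0.109 in edgeR missed the threshold. Without control artery 4 Igfbp2 was called downregulated, at -1.72 ± 0.34 (SE), with an adjusted p of 0.00789 in edgeR, which is a 3.29-fold fall. DESeq2 called it with all arteries included, at -1.41 and an adjusted p of 0.0263. Without both control artery 4 and injured artery 3, the arteries highest in sympathetic neuron genes, it was -1.61 (adjusted p = 0.00893, edgeR).

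Because Igfbp3 and Igfbp2 lay at the ends of the range of log2 fold changes, the 250 bases before their starts are shown together with those of Igfbp4 (RefSeq, GRCr8). They lie at chr14:86277945-86278194 on the minus strand for Igfbp3, at chr9:81864561-81864810 on the plus strand for Igfbp2 and at chr10:84491221-84491470 on the plus strand for Igfbp4. The capitals have the same meaning as for Igf2.
Igfbp3: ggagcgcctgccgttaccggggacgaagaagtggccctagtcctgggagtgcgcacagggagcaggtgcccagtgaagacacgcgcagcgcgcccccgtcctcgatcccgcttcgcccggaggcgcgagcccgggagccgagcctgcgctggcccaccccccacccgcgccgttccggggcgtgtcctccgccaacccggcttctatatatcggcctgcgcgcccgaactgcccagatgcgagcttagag
Igfbp2: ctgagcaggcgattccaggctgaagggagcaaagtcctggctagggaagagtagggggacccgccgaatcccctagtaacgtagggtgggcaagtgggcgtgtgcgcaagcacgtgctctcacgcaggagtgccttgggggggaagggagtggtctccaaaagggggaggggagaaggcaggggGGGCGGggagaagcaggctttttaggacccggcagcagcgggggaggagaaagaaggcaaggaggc
Igfbp4: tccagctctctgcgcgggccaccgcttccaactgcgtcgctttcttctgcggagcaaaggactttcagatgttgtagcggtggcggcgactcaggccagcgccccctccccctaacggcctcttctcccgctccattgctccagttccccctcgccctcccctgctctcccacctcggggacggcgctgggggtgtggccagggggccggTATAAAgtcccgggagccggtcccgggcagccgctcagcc
The Igfbp3 window contains 31 CpG dinucleotides, more than 95.3% of all windows, and no exact match to TATAAA or GGGCGG. Only these exact letters were searched, so variants of either box are not marked in any window. The Igfbp2 window contains 11 CpG dinucleotides and 1 GGGCGG, and the Igfbp4 window 21 and 1 TATAAA. Over the 10 genes, which have 11 windows, 9 windows had more CpG dinucleotides than the median window, 5 held GGGCGG and 1 held TATAAA. A match of letters is not a measured binding site.

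The remaining binding protein genes were not called. Igfbp7, whose product binds IGFs only weakly and is abundant in vessels, was at 2748, 2316, 2418 and 987 CPM in control arteries 1 to 4 and at 1698, 1605, 1294 and 1627 CPM in injured arteries 1 to 4. The injured arteries lay below control arteries 1 to 3 and above control artery 4. Its log2 fold change was -0.44 ± 0.30 (SE, 95% CI -1.14 to 0.25, adjusted p = 0.365, edgeR). Without control artery 4 it was -0.69 ± 0.13 (SE), with an adjusted p of 0.00594 in edgeR, a 1.61-fold fall that stayed within the fold criterion. Of 8 contractile smooth muscle genes, 5 were called downregulated. Their summed level was 37310 to 50550 CPM in control arteries 1 to 3, 17430 CPM in control artery 4 and 10560 to 16610 CPM in the injured arteries, with none at 0, and their part in the Igfbp7 and Igfbp2 values was not tested.

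Igfbp5, whose product is stored in extracellular matrix, was at 262.3, 307.8, 305.1 and 144.0 CPM in the controls and at 451.4, 269.9, 294.9 and 364.9 CPM in the injured arteries, in order of their numbers. Igfbp5 had a log2 fold change of 0.44 ± 0.27 (SE, 95% CI -0.18 to 1.06, adjusted p = 0.316, edgeR), which became 0.24 without control artery 4 (adjusted p = 0.359, edgeR). Igfbp6, whose product prefers IGF-II, was at 406.5, 302.6, 323.2 and 128.0 CPM in the controls and at 434.8, 260.4, 244.9 and 295.4 CPM in the injured arteries. Its log2 fold change was 0.09 ± 0.35 (SE, 95% CI -0.70 to 0.88, adjusted p = 0.884, edgeR), and it turned negative, to -0.16, without control artery 4. For both genes the groups overlapped widely. In the RefSeq gene order Igfbp5 is the coding neighbor of Igfbp2, and Igfbp3 is that of Igfbp1, which had at most 2 counts in any artery.

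**Figure D2:**
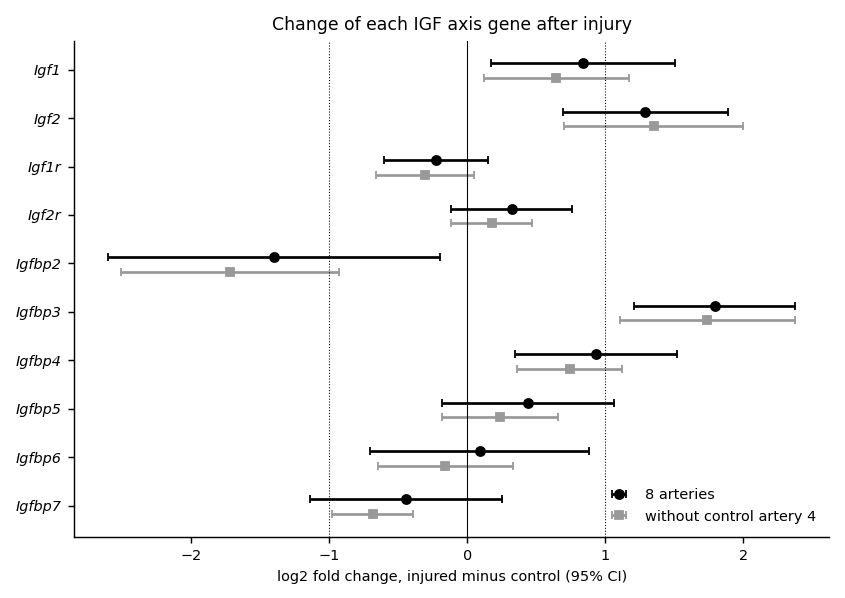
Log2 fold change of each IGF axis gene, injured minus control (x axis), with its 95% CI, from all 8 arteries (black circles) and without control artery 4 (grey squares). Dotted lines mark a fold change of 2 in each direction. Igfbp3 and Igf2 lie beyond the right line in both fits, and Igfbp2 lies beyond the left line with an interval that reaches close to 0 until control artery 4 is left out.

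Ratios of counts within an artery do not depend on the scaling between libraries. The ratio of Igfbp3 to Igfbp2 counts was 0.881, 0.866, 0.867 and 3.36 in control arteries 1 to 4 and 12.6, 8.38, 9.07 and 10.2 in injured arteries 1 to 4. The lowest injured artery was therefore above the highest control, also with control artery 4 included. The ratio of Igfbp4 to Igfbp7 counts was 0.208, 0.248, 0.206 and 0.287 in the controls and 0.591, 0.553, 0.532 and 0.674 in the injured arteries, again without overlap. Both pairs were picked after the values of the genes were seen, so these ratios are a description without a test.

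**Figure D3:**
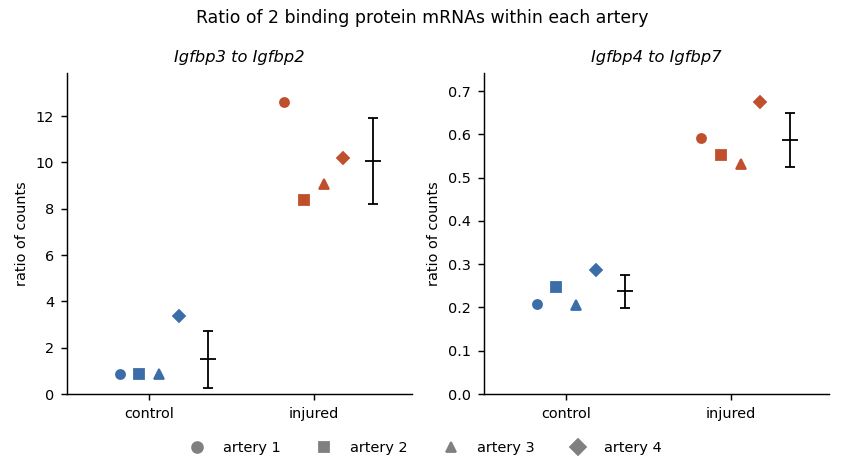
Ratio of counts of Igfbp3 to Igfbp2 (left) and of Igfbp4 to Igfbp7 (right) in each artery, with y axes from 0 and the mean ± SD of each group (n = 4) in black. All injured arteries (red) lie above all controls (blue) in both panels, and control artery 4 is the highest control.

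An exact permutation test of log2 CPM (two-sided, 70 relabellings) was run for each of the 10 genes. The exact permutation p was 0.0286 for Igf2, Igfbp3 and Igfbp4, the smallest that 4 arteries against 4 allow. It was 0.0857 for Igf1 in this exact test, 0.114 for Igf2r and Igfbp2, 0.229 for Igf1r and Igfbp5, 0.371 for Igfbp7 and 0.8 for Igfbp6. These p-values are not adjusted for the 10 tests.

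The rest of the pathway was read from lists of 61 other genes, of which 58 matched the table and 48 had enough counts. Of these, 8 were upregulated (16.7%, against 8.31% of all genes) and 1 was downregulated. The lists, that of the imprinted genes included, were chosen with earlier results known. Outside the imprinted genes, 3 of 41 were upregulated (7.32%), near the share of all genes. Without control artery 4 the counts over all lists were 10 up and 2 down, and the shares of all genes also changed, to 12.3% and 3.94%. With all 8 arteries the 48 genes had a median log2 fold change of -0.13. The calls fell among genes that act on the binding proteins or on Igf2 mRNA and among imprinted genes, while 1 of 33 genes in the signaling arms was called.

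Genes of IGFBP proteases and their inhibitors were tested in 5 of 7 cases, and 2 were called. Adam12 encodes a metalloprotease that cleaves IGFBP-3 and IGFBP-5. It was at 3.7, 4.7, 4.9 and 3.4 CPM in control arteries 1 to 4 and at 70.6, 174.5, 76.0 and 102.7 CPM in injured arteries 1 to 4, with no overlap. The log2 fold change was 4.67 ± 0.34 (SE, adjusted p = 0.000226, edgeR). Pappa, the gene of pappalysin-1, which cleaves IGFBP-4, was at 1.9 to 3.1 CPM in the controls and at 3.0, 5.2, 8.0 and 7.3 CPM in the injured arteries. Its log2 fold change of 1.28 ± 0.34 (SE, adjusted p = 0.0351, edgeR) passed both criteria in 2 of 8 fits with 1 artery left out, among them the fit without control artery 4 (1.41, adjusted p = 0.0242, edgeR). Htra1, a secreted serine protease gene, and Stc1 and Stc2, whose products inhibit pappalysin, had log2 fold changes of 0.34, 0.33 and -0.96 and were not called (adjusted p = 0.279, 0.545 and 0.169, edgeR). Without control artery 4, Stc2 was called downregulated (log2 fold change -1.20, adjusted p = 0.0477, edgeR). Igfals, the gene of the subunit that stabilizes circulating IGF complexes, had at most 4 counts in any artery, at the limit of what these libraries could show.

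The largest log2 fold change of the pathway lists was that of H19. This gene, an imprinted noncoding RNA gene that lies next to Igf2 and shares its control region, was at 2.8, 7.1, 8.9 and 10.3 CPM in control arteries 1 to 4. In injured arteries 1 to 4 it was at 350.6, 487.1, 222.2 and 747.3 CPM. This was a log2 fold change of 5.96 ± 0.57 (SE), a 62.2-fold rise, with an adjusted p of 0.000561 in edgeR, and it stayed between 5.60 and 6.18 when each artery was left out in turn. The H19 to Igf2 ratio of counts was 0.196 to 0.471 in the controls and 6.21 to 12.03 in the injured arteries, so both genes rose, but by different factors. Igf2bp2 encodes a protein that binds Igf2 mRNA. It was at 2.1, 2.2, 1.7 and 2.8 CPM in the controls and at 13.8, 13.3, 9.2 and 20.05 CPM in the injured arteries, a log2 fold change of 2.67 ± 0.28 (SE, adjusted p = 0.000865, edgeR). Its relatives Igf2bp1 and Igf2bp3 had at most 9 counts in any artery.

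Of 8 listed imprinted genes with a role in growth, 7 were tested and 5 were upregulated, H19 included. The list was chosen with earlier results of these data known, so that count has no test of its own. Plagl1, a zinc finger transcription factor gene, was at 3.2 to 8.0 CPM in the controls and 15.2 to 33.9 CPM in the injured arteries, a log2 fold change of 2.10 ± 0.36 (SE, adjusted p = 0.00593, edgeR). Cdkn1c, which encodes the cyclin-dependent kinase inhibitor p57, was at 5.4 to 14.6 CPM and at 20.4 to 39.3 CPM, a log2 fold change of 1.54 ± 0.33 (SE, adjusted p = 0.0166, edgeR). Cdkn1c passed in 5 of 8 fits with 1 artery left out and was lost without control artery 2, injured artery 2 or injured artery 4. Zim1, another zinc finger gene, was at 0.8 to 1.0 CPM and at 6.5 to 37.3 CPM, a log2 fold change of 4.40 ± 0.54 (SE, adjusted p = 0.00151, edgeR). Dlk1, a transmembrane protein gene related to the Notch ligands, was at 0.1 to 1.9 CPM and at 2.1 to 8.0 CPM. Its log2 fold change of 2.93 ± 0.75 (SE, adjusted p = 0.0325, edgeR) passed in 2 of 8 fits with 1 artery left out, among them the fit without control artery 4 (3.97, adjusted p = 0.00325, edgeR). Mest and RGD1566401, which RefSeq lists under the name Meg3, were not called (log2 fold change 0.07 and 0.50). RGD1566401 was at 41.5 to 60.5 CPM in control arteries 1 to 3, at 523.2 CPM in control artery 4 and at 155.6 to 336.9 CPM in the injured arteries, and without control artery 4 it was called upregulated (2.25 ± 0.27 SE, adjusted p = 0.000966, edgeR). That made 6 of 7 imprinted genes.

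**Figure D4:**
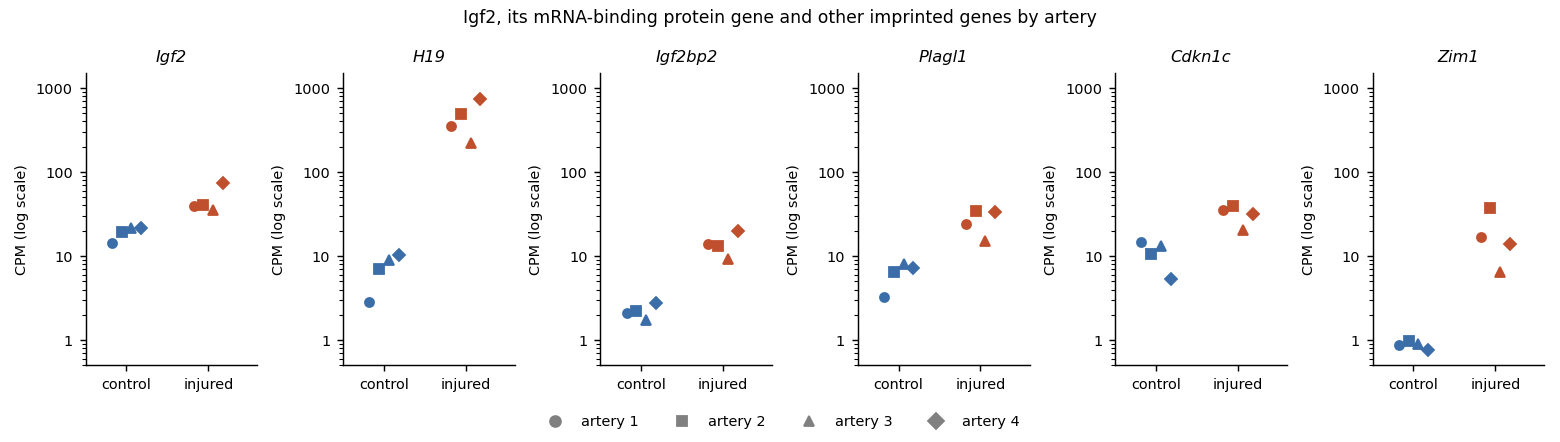
Levels in CPM on a shared log axis of Igf2, H19, Igf2bp2, Plagl1, Cdkn1c and Zim1 in the control (blue) and injured (red) arteries, with 1 symbol per artery number. For each gene the injured arteries lie above all controls, and injured artery 3 (triangle) is the lowest injured artery.

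Igf2, H19 and Dlk1 are also known from developing and regenerating skeletal muscle, whose genes differed between the groups. Of 6 regenerating muscle genes (Myog, Myod1, Myh3, Myh8, Pax7 and Myf5), 2 had enough counts, Myh3 and Myh8. Both passed the count filter only through the injured arteries, as Myh3 had at most 5 counts in any control and Myh8 had 0. That both were called upregulated therefore follows largely from the filter. The summed level of the 6 genes was 0 to 0.36 CPM in the controls, where all but Myh3 were at 0 counts. In injured arteries 1 to 4 it was 15.9, 28.6, 5.22 and 69.3 CPM. H19 and Igf2 had the same order among these arteries, a comparison made after the values were seen. Dlk1, at 7.96, 6.09, 2.13 and 7.45 CPM in injured arteries 1 to 4, had another order, as did the sum of mature muscle genes that follows. Of 9 genes of mature skeletal muscle, 7 were called upregulated. Among these 7, Myh1, Myh2, Myh4, Tnni2, Actn3 and Mylpf had at most 9 counts in any control and likewise passed the filter through the injured arteries. The sum of the 9 genes was 84.5 to 252.9 CPM in the controls and 764.4, 438.3, 303.8 and 1100 CPM in injured arteries 1 to 4. The part of muscle RNA in the Igf2 and H19 values was not tested. Injured artery 3 had the lowest injured sums of both muscle lists and the lowest injured levels of H19 and Igf2, and all 4 values lay above those of every control.

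The signaling arms below the receptor were mostly not called. Of 23 tested genes of the receptor adaptors and the PI3K-Akt-mTOR arm, 0 were upregulated and 1, Irs2, was downregulated, in edgeR as in DESeq2, and by the unadjusted p under 0.05 in edgeR the counts were 0 and 8, the latter beside 14.3% of all genes tested. Irs2 encodes an insulin receptor substrate, which links the receptor to PI3K. It was at 191.0, 138.4, 82.5 and 127.7 CPM in control arteries 1 to 4 and at 95.04, 52.3, 61.2 and 49.4 CPM in injured arteries 1 to 4, so that injured artery 1 overlapped control artery 3. Its log2 fold change of -1.06 ± 0.30 (SE, adjusted p = 0.0428, edgeR) passed both criteria in 3 of 8 fits with 1 artery left out, and without control artery 4 it was -1.09 (adjusted p = 0.0328, edgeR). Irs1 had a log2 fold change of -0.03 ± 0.31 (SE, adjusted p = 0.965, edgeR). Of 10 genes in the Ras-MAPK arm, 0 were called in edgeR or DESeq2, and 1 had an unadjusted p under 0.05 in edgeR, with a negative fold change. Over both arms, 24 of 33 genes had a negative log2 fold change, and of all genes tested 45.2% had a positive one. Such small changes depend on the scaling, as library totals moved the median of all genes by 0.17. In the first arm Foxo3, Rptor and Rictor were lower and Akt1 was higher without overlap, each at an exact permutation p of 0.0286. With library totals the exact permutation p was 0.0571, 0.457, 0.4 and 0.0286, in that order. With TMM scaling, the list of receptor adaptors and the PI3K-Akt-mTOR arm summed to 2138 to 2276 CPM in the controls. It summed to 1877 to 1982 CPM in the injured arteries, without overlap. This separation depends on the TMM factors, which were 0.906 to 1.00 in the controls and 1.03 to 1.08 in the injured arteries. A higher factor lowers the CPM of an artery. The sums of the Ras-MAPK arm overlapped, at 838.2 to 1605 CPM and 838.9 to 1112 CPM. Neither difference in sums was tested. Insr, the insulin receptor gene, had a log2 fold change of -0.21 ± 0.14 (SE, adjusted p = 0.36, edgeR).

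**Figure D5:**
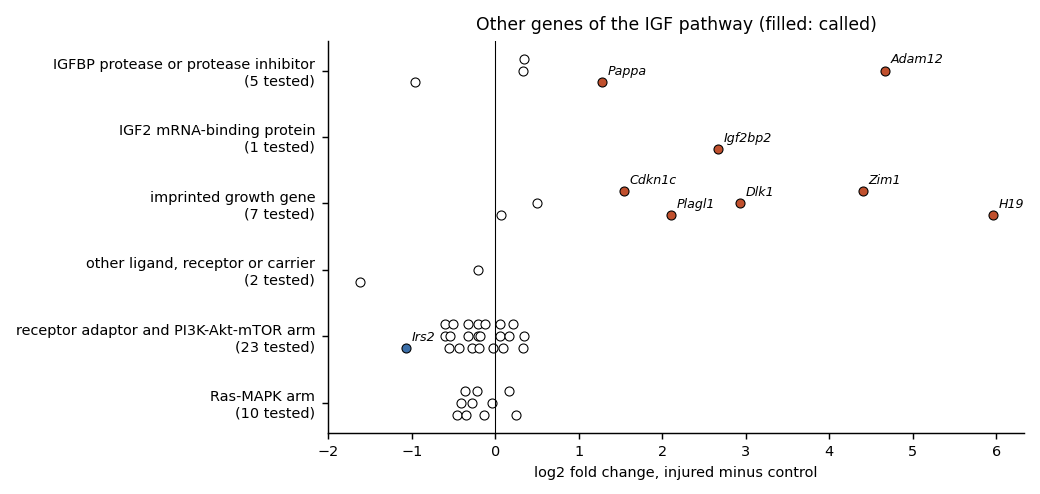
Log2 fold change, injured minus control (x axis), of each tested gene outside the 10 IGF axis genes, with 1 row per list and points spread vertically for legibility. Filled points were called (red for upregulated, blue for downregulated) and are named, and both signaling arms lie near 0 with Irs2 as their only filled point.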

How the data were processed

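RNA from 4 injured and 4 contralateral carotid arteries was sequenced. The authors deposited raw read counts per gene, listed by symbol, for each artery. The submitters' processing notes name HISAT2 2.0.4. The counting tool, strand setting and genome build are not given in the sources used here, so overlapping genes may share reads.

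With edgeR 4.0.16 in R 4.3.3, genes with low counts were removed with filterByExpr, TMM factors were computed, and injured and control arteries were compared by the quasi-likelihood test without covariates, with Benjamini-Hochberg adjustment over all 14359 genes kept. Standard errors and 95% intervals were derived from the F statistic. The scripts were tested on simulated data. DESeq2 1.42.0, other scalings, filters and call rules, the replicate block and fits without single arteries were alternatives. Leaving out control artery 4 and injured artery 3 together was added after seeing the data.

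The members and gene lists were chosen with earlier results of these data known. Named genes are the 10 members, every called gene of the pathway lists, and Igfbp1, Igfals, Pappa, Htra1, Stc1, Stc2, Insr, Irs1, Irs2 and H19. Other names were chosen after their values were seen. Transcript lengths were not used here, so levels were not compared between genes. Permutation tests used log2(CPM + 0.5). Promoter sequences came from RefSeq tables of GRCr8. P-values measure the spread between these arteries, 4 per group, whose independence as separate animals the labels do not state. The main tests treated the groups as unpaired, although the study describes the controls as the injured rats' own opposite arteries.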

Additional observations from a re-analysis of the deposited data

Results flagged for a closer look

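Among 52 groups of 4 arteries, 7 had an artery whose gap to its nearest neighbor, as a share of the whole range, exceeded Dixon's 95% critical value for 4 values, where chance gives about 2.6. For Igf2 in the injured arteries the ratio was 0.874, from 73.1 CPM in injured artery 4 against 40.5 CPM in the nearest. For Igf1r in the injured arteries it was 0.832, from 109.3 CPM in injured artery 1 against 80.5 CPM. For Igf2r in the controls it was 0.947, from 234.8 CPM in control artery 4 against 368.8 CPM, and for Stc1 in the controls it was 0.837, from 1.88 CPM in the same artery against 5.04 CPM. The ratio was 1 for Igfbp1 in both groups and for Igfals in the controls, where a single artery had 1 or 2 counts and the others had 0. The 52 groups did not cover every gene named in this report. RGD1566401 and Insrr were not among them, with 523.2 and 164.3 CPM in control artery 4 against at most 60.5 and 0.07 CPM in the other controls.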

How the results depend on the processing

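Called genes numbered 1562 of all genes (1193 up, 369 down), 2 of the 10 IGF axis genes (2 up, 0 down) and 9 of the other pathway genes (8 up, 1 down). With each artery left out in turn the ranges were 1142 to 2398 (945 to 1817 up, 197 to 581 down), 1 to 3 (1 to 3 up, 0 to 1 down) and 5 to 12 (5 to 10 up, 0 to 2 down). The highest counts of all genes came without control artery 4, and of the 2398 genes then called 1482 were among the 1562. Leaving out injured artery 3 as well gave 2473 (1800 up, 673 down), with 1 IGF axis gene down and 2 pathway genes down. DESeq2 called 1 IGF axis gene down. Library totals alone, which moved the median log2 fold change of all genes by 0.17 and the share of calls that were upregulated from 76.4% to 85.1%, called 4 IGF axis genes, all 4 up, and 0 pathway genes down. Upper-quartile scaling and no filter also left 0 pathway genes down. A minimum of 10 counts in every artery called 1007 genes (715 up). The adjusted p alone called 2468 (918 down), with 2 pathway genes down. The test against a fold change of 2 called 661 (600 up, 61 down), 1 IGF axis gene, which was up, and 5 pathway genes, 5 up and 0 down.

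The log2 fold change of Igfbp6 turned negative without control artery 4 (-0.16), without injured artery 1 (-0.12) and without control artery 4 and injured artery 3 (-0.0601), and ranged from -0.16 to 0.29 with 1 artery left out. The exact permutation p of Igf1 and Igf2r fell to 0.0286 with library totals.

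With the replicate number as a block, edgeR called 1187 genes, 234 of them down, 2 IGF axis genes and 6 pathway genes, 5 of them up. The adjusted p was 0.0279 for Igf2 at a log2 fold change of 1.25, and 0.115 for Igfbp4, while Cdkn1c (0.0503), Pappa (0.0502) and Dlk1 (0.0647) were no longer called. The labels do not say that a number marks a rat, so the numbers were not taken to pair the arteries. Deviations of same-numbered arteries correlated at 0.363, 0.494, -0.581 and -0.447, and 1 of 4 controls correlated best with its own number. These values cannot tell whether a number marks a rat, because control artery 4 and injured artery 3 each stood out in sympathetic neuron genes. The cause of the differences between settings was not tested. At these depths 3 counts corresponded to 0.18 to 0.262 CPM, so lower levels, as of Igfbp1, could not be measured. Intervals cover the spread between arteries only.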

Other observations

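Insrr, the gene of the insulin receptor-related receptor, was not called with all 8 arteries (adjusted p = 0.662, edgeR) and was, like the sympathetic neuron genes, highest in control artery 4 and next in injured artery 3. In the fit without control artery 4 its log2 fold change turned from -1.63 to 7.85, and it was called upregulated (adjusted p = 0.0193, edgeR). It had 2364 counts in control artery 4 and 798 in injured artery 3, against 0 or 1 in the other controls and 11 to 80 in the other injured arteries. Foxo3, the gene of a transcription factor that Akt restrains, had an adjusted p of 0.0125 in edgeR at a log2 fold change of -0.55. It was at 78.7 to 98.9 CPM in the controls and 59.2 to 70.3 CPM in the injured arteries, below the fold criterion. Its groups did not overlap with TMM scaling (exact permutation p = 0.0286), while library totals gave an exact permutation p of 0.0571. Foxo3 was picked after its values were seen.

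The summed level of 6 proliferation genes was 8.69 to 16.8 CPM in the controls and 76.2 to 119.5 CPM in the injured arteries, and all 6 were called upregulated. Cartilage genes summed to 12.96 to 21.6 CPM and 120.9 to 404 CPM, with 4 of 5 tested genes called upregulated. These sums were mostly Comp and Acan, and the study also reported higher acan mRNA in the injured artery by PCR. Col2a1 was not called (adjusted p = 0.119, edgeR), though DESeq2 called it, and Chad had too few counts for the test. Sums overlapped between the groups for Schwann cell genes (309.4 to 1194 and 489.9 to 1672 CPM), adipocyte genes (81.1 to 687.6 and 118.1 to 307.6 CPM), fibroblast genes (10640 to 31560 and 15680 to 25510 CPM) and endothelial genes (809.1 to 2149 and 656.2 to 936.1 CPM). For the fibroblast and endothelial genes the overlap came from control artery 4 alone. In control arteries 1 to 3 these sums were 27790 to 31560 CPM and 1179 to 2149 CPM, above every injured artery. Most of the fibroblast sum was Col1a1, at 23918 to 26993 CPM in these controls and 13634 to 22547 CPM in the injured arteries. Col1a1 was not called (adjusted p = 0.746, edgeR). Much of the endothelial sum was Vwf, at 719.0 to 1487 CPM and 192.3 to 364.6 CPM, so the sums do not describe the other genes of these lists. Within the endothelial list, Cdh5, Kdr and Emcn were called upregulated and Vwf downregulated, and within the fibroblast list Dpt was called upregulated and Dcn, Pi16 and Fbln1 downregulated. Brain genes, mostly Gfap, summed to 2.15 to 29.7 CPM and 9.36 to 198.6 CPM.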
